A study of Homo sapiens with 6 samples.

Results

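The integrated stress response and the unfolded protein response were described here through 40 genes, picked by name from the 32862 genes of the expression table. All 40 had a row of counts and of FPKM (fragments per kilobase of gene length, scaled by library size by the authors). RNA came from SH-SY5Y, a human neuroblastoma cell line of sympathetic neuron character, after oligo(dT) selection. There were 3 libraries of wild-type cells (WT) and 3 of cells in which OTULIN, a deubiquitinase of linear ubiquitin chains, had been knocked out with CRISPR-Cas9 (KO). Both groups were untreated, were grown in the same serum-containing medium and carry the same batch label, 1. No stressor was given to either group, so the WT values are base levels. The labels do not say whether the KO cells were 1 clone or a pool, nor whether each replicate was its own culture. The p-values therefore cover the scatter of these 6 libraries alone, and that scatter may be technical.

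Cells slow protein synthesis under stress by phosphorylating the initiation factor eIF2 (the integrated stress response). This favours translation of ATF4, a transcription factor that turns on genes of amino acid supply, redox balance and feedback. Misfolded protein in the endoplasmic reticulum (ER) is sensed by PERK (EIF2AK3), IRE1 (ERN1) and ATF6. PERK acts through eIF2, IRE1 splices XBP1 mRNA, and cleaved ATF6 and spliced XBP1 raise chaperones and the machinery of ER-associated degradation (ERAD). Splicing of XBP1, cleavage of ATF6 and phosphorylation of eIF2 are not measured by gene counts.

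The start regions of 8 of these genes held a binding element through which the ER stress factors or ATF4 are known to act, and those stretches are shown to identify the genes by their regulatory sequence. RefSeq windows (GRCh38.p14, 250 bases before to 50 after the start site) were matched for 35 of the 40 genes. NUPR1, PSPH, SHMT2, SLC7A11 and PDIA3 had no entry. Both strands were searched for 4 motifs. The ER stress response element (ERSE) was CCAAT and CCACG with any 9 bases between them. It was found in 4 of the 35 windows (11.4%) and in 22 of all 27305 windows (0.0806%). ERSE-II, which is ATTGG and CCACG with any 1 base between them, was found in 3 of 35 (8.57%) and in 15 of all windows (0.0549%). TGACGTGG, the core of the unfolded protein response element (UPRE), was in 1 of 35 (2.86%) and 217 of all (0.795%). TTGCATCA, a composite element of ATF4 and C/EBP proteins, was in 2 of 35 (5.71%) and 252 of all (0.923%). These genes were listed because they are known targets, so the shares are a description of the list. A match is not evidence of binding in these cells, and no match says only that the letters are not in this window.

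The 8 genes with a match are printed 5′ to 3′ on the gene's strand with 20 bases on either side, matches in capitals. In CALR, CRELD2, SDF2L1 and HYOU1 the ERSE or ERSE-II lies on the opposite strand and is read as its reverse complement. In HYOU1 the UPRE core overlaps the first of its ERSE-II matches.
CALR, ERSE, chr19:12938364-12938422, plus strand: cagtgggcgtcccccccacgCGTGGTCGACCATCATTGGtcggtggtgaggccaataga
CANX, ERSE, chr5:179698758-179698816, plus strand: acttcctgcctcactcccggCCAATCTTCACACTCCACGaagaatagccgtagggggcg
CRELD2, ERSE, chr22:49918534-49918592, plus strand: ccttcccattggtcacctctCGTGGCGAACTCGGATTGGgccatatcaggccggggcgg
XBP1, ERSE, chr22:28800583-28800641, minus strand: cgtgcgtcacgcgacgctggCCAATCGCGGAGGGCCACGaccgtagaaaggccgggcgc
SDF2L1, ERSE-II, chr22:21642094-21642144, plus strand: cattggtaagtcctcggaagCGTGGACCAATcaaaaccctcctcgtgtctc
HERPUD1, ATF4 and C/EBP element and ERSE-II, chr16:56931946-56932055, plus strand: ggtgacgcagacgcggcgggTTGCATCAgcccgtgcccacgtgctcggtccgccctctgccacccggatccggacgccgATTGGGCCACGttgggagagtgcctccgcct
HYOU1, UPRE core and 2 ERSE-II, chr11:119057254-119057413, minus strand: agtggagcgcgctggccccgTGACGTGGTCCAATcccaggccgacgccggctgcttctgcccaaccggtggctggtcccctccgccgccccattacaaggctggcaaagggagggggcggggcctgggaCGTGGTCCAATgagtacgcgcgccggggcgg
CHAC1, ATF4 and C/EBP element, chr15:40953242-40953289, plus strand: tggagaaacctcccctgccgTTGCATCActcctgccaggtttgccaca

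**Figure D1:**
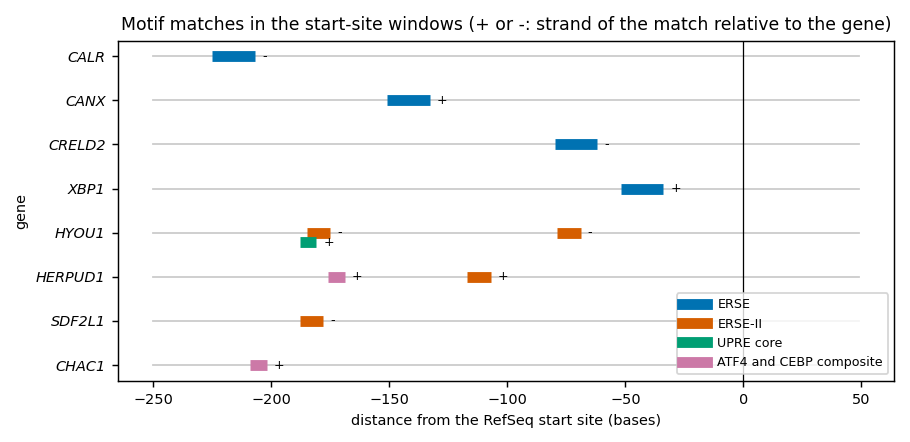
Position of each motif match in the start-site windows of the 8 genes, in bases from the RefSeq start site at 0; grey lines are the windows, coloured blocks the matches, and + or - the strand of the match relative to the gene. All matches lie before the start site, the nearest in XBP1 and the farthest in CALR.

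The 2 groups of libraries were of very different depth, which bears on every comparison between them. The KO libraries held 725827 to 862932 counts over 2306 to 2567 genes, and the WT libraries 61772795 to 64352333 counts over 27453 to 27958 genes. Mitochondrially encoded genes took 0.00372 to 0.00452% of the counts in KO and 8.41 to 8.70% in WT. OTULIN itself (chromosome 5, 14664664 to 14699850, hg38) had 0 counts in each KO library and 1682, 2101 and 2155 in WT, where 75.6 counts would have been seen over the KO group at the WT share. Since 71.3% of the 10820 genes tested were also at 0 in all KO libraries, this is no separate check of the labels. Depth and composition go with genotype in all 6 libraries, so their part in any difference cannot be told apart from that of OTULIN loss. Whether the KO columns hold the full counts of those libraries is not given in the sources used here, and every KO zero and bound that follows holds for the counts as deposited. Nor can fewer cells of a type be told apart from less RNA per cell.

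Markers of the labelled cell were present in WT, and many had no count in KO. Of 15 adrenergic neuroblastoma markers, 14 had at least 1 FPKM in WT and 6 had any count in KO, and 9 were at 0 there, with a summed level of 8380 to 9250 CPM (counts scaled to a library total of 1e6) in WT and 1920 to 2290 in KO. Noradrenaline synthesis was represented by DBH, with 1986 ± 139 CPM in WT and none in KO (SD, n = 3), and the regulator GATA3 at 421 ± 45 and 0. For HAND2 the values were 946 ± 41 CPM (WT) and 293 ± 34 (KO). ELAVL4, a neuronal RNA-binding protein, went the other way and made up most of the KO sum, with 1312 ± 114 CPM in KO and 510 ± 37 in WT (edgeR adjusted p = 3.3e-05). TH, which makes the dopamine precursor, was low in WT (1.79 ± 0.31 CPM) and 0 in KO. Summed CPM of other cell types ranged in KO and WT, respectively, from 64.9 to 150 and 358 to 372 for 7 mesenchymal genes, and from 17.3 to 62.6 and 7.75 to 40 for 6 epithelial genes, with CD44 and KRT8 at 0 in KO. Within these lists COL1A1 was higher in KO, at 47.8 ± 27 against 9.37 ± 2.1 CPM (edgeR adjusted p = 0.0019), and VIM, the largest part of the WT mesenchymal sum, was at 5.51 ± 9.5 against 224 ± 5.7. KRT5 had 26.3 ± 12 CPM in KO and 5.91 ± 9.5 in WT and was not called (edgeR adjusted p = 0.33), and CDH1, at 5.51 ± 9.5 and 0.641 ± 1.1, was not tested. ELAVL4, COL1A1, VIM, KRT5 and CDH1 were chosen after their values were seen. For 4 blood genes the ranges were 0 to 6.89 and 0.0643 to 0.809, with CD68 at 0 in KO, and for 6 genes of glia and endothelium 0 to 4.13 and 0.591 to 2.19, with GFAP, AQP4, S100B and VWF at 0 in KO. The part of these markers in the differences described next was not tested.

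In wild-type cells most of the 40 genes were expressed at base level. A mean of at least 1 FPKM was reached by 36 of the 40 genes, and the median over all 40 was 9.60 FPKM. The 12713 genes of the table at or above 1 FPKM had a median of 5.70. Of the 36 genes, 26 lay above the 50th percentile of those genes. EIF2AK3, ERN1, SLC7A11 and NUPR1 had a mean under 1 FPKM. Levels spanned from 107 FPKM for CALR to 0.00719 for NUPR1. The 3 WT libraries were close to each other, with a median coefficient of variation of 5.96% over the 36 genes against 7.05% over all expressed genes. When the genes were put in order of WT level, 19 of the 39 neighbouring pairs had values that did not overlap, and 20 pairs could not be ordered beyond their spread.

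**Figure D2:**
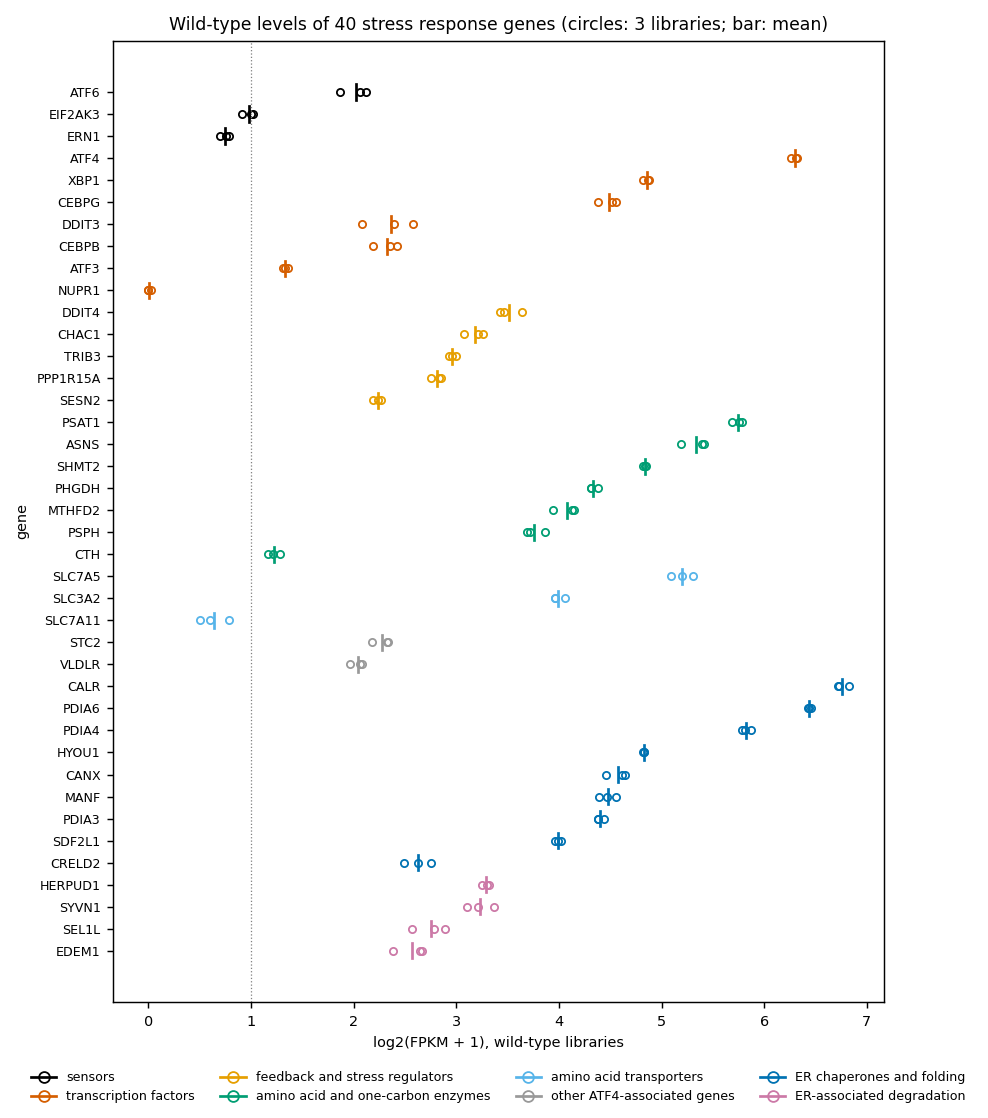
Level of the 40 genes in the 3 wild-type libraries on the log2(FPKM + 1) scale, grouped by role; circles are libraries, bars are means, and the dotted line marks 1 FPKM. The ER folding genes reach from CRELD2 at 5.18 to CALR at 107 FPKM, and the means of the sensors EIF2AK3 and ERN1 lie below the line.

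Sensors had the lowest median of the roles. The median of the 3 was 0.972 FPKM. ATF6, the membrane-bound transcription factor cleaved under ER stress, was at 2.65, 3.36 and 3.17 FPKM in WT replicates 1 to 3. EIF2AK3, the eIF2 kinase PERK, was at 0.889, 0.995 and 1.03 FPKM, and ERN1, the kinase and endoribonuclease IRE1, at 0.620, 0.685 and 0.724. The 3 ranges did not overlap, so the order was ATF6, EIF2AK3, ERN1.

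Transcription factors of the response spanned 77.7 FPKM for ATF4 to 0.00719 for NUPR1, or to 1.52 for ATF3 with NUPR1 left aside. ATF4 was the third most abundant of all 40 genes at 75.5, 78.6 and 78.8 FPKM. XBP1, whose spliced form drives ER chaperones and ERAD, was at 28.1, 27.2 and 28.5 FPKM. CEBPG, a dimerisation partner of ATF4, was at 21.4 ± 1.4 FPKM (SD, n = 3). DDIT3, which encodes the pro-apoptotic factor CHOP, was at 3.23, 4.99 and 4.27 FPKM and so varied more between libraries (21.2%) than ATF4 (2.37%). CEBPB, a C/EBP factor of stress and inflammation, was at 4.003 ± 0.41 FPKM, overlapping DDIT3. ATF3, a stress-induced repressor, was at 1.52 ± 0.038 FPKM. NUPR1, a stress-induced chromatin protein, had 0, 0 and 9 counts and was the only one of the 40 without a count in WT replicates 1 and 2.

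Feedback and stress regulators were at intermediate levels. DDIT4, an inhibitor of mTORC1, was at 11.5, 10.1 and 9.73 FPKM. CHAC1, which degrades glutathione, was at 8.28, 7.45 and 8.596 FPKM. TRIB3, a pseudokinase that restrains ATF4 and CHOP, was at 6.78 ± 0.18 FPKM, PPP1R15A, the phosphatase subunit GADD34 that reverses eIF2 phosphorylation, at 6.04 ± 0.24, and SESN2, a leucine sensor, at 3.71 ± 0.13. No neighbours in this order overlapped.

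Most enzymes and transporters of amino acid supply, the main ATF4 targets, were well expressed, but CTH and SLC7A11 were low. PSAT1 and PHGDH, which with PSPH make serine, were at 52.5 ± 1.7 and 19.2 ± 0.52 FPKM, and PSPH at 12.5 ± 0.90. ASNS, which makes asparagine, was at 35.5, 41.0 and 41.6 FPKM. SHMT2 and MTHFD2, of the mitochondrial one-carbon pathway, were at 27.6 ± 0.25 and 15.9 ± 1.3 FPKM, and CTH, of the transsulfuration route to cysteine, at 1.33 ± 0.089. SLC7A5, the light chain of the large neutral amino acid transporter LAT1, was at 38.7, 35.7 and 33.1 FPKM, and its heavy chain SLC3A2 at 14.5, 15.7 and 14.6. SLC7A11, the light chain of the cystine transporter that shares this heavy chain, was at 0.418, 0.521 and 0.728 FPKM, the largest relative spread (28.4%) of the genes with a count in every WT library. VLDLR, a lipoprotein receptor, and STC2, a secreted glycoprotein, both raised by ATF4, were at 3.11 ± 0.18 and 3.86 ± 0.28 FPKM.

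ER folding genes had the highest median of the roles, 22.9 FPKM, and ERAD genes a lower one. CALR, a lectin chaperone, was at 112, 104 and 105 FPKM. PDIA6 and PDIA4, protein disulfide isomerases, were at 85.9 ± 0.89 and 55.7 ± 1.8 FPKM. HYOU1, an HSP70-related chaperone and nucleotide exchange factor, was at 27.4 ± 0.15 FPKM, the tightest of the set (0.566%). CANX, the membrane-bound relative of CALR, was at 22.9 ± 1.6, the secreted protein MANF at 21.3 ± 1.3, the disulfide isomerase PDIA3 at 20.1 ± 0.51, SDF2L1 at 14.9 ± 0.31 and CRELD2 at 5.18 ± 0.56. The 4 ERAD genes had a median of 7.07 FPKM. Their levels were 8.78 ± 0.24 for HERPUD1, 8.40 ± 0.86 for the ubiquitin ligase SYVN1, 5.74 ± 0.77 for its partner SEL1L and 4.94 ± 0.63 for the mannosidase-like EDEM1. HERPUD1 and SYVN1 overlapped, as did SEL1L and EDEM1 with CRELD2.

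These orders rest on the length behind the authors' FPKM. The length implied by WT counts and FPKM was 12850 bases for PDIA3, 15010 for CANX, 12490 for MTHFD2 and 22660 for EIF2AK3, where the union of GENCODE v29 exons is 4240, 6235, 4870 and 5434 bases. Per exon-union kilobase, on a scale set to the same sum, PDIA3 went from 20.1 to 53.8, CANX from 22.9 to 48.6, MTHFD2 from 15.9 to 35.9 and EIF2AK3 from 0.972 to 3.57. PDIA3 thereby moved from the 14th to the 5th place and MTHFD2 from the 16th to the 9th, and 3 of the 40 genes moved by more than 5 places. CALR, PDIA6, ATF4 and PDIA4 held the first 4 places on both scales. EIF2AK3 stayed between ATF6, at 5.33, and ERN1, at 1.15, on the second scale.

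**Figure D3:**
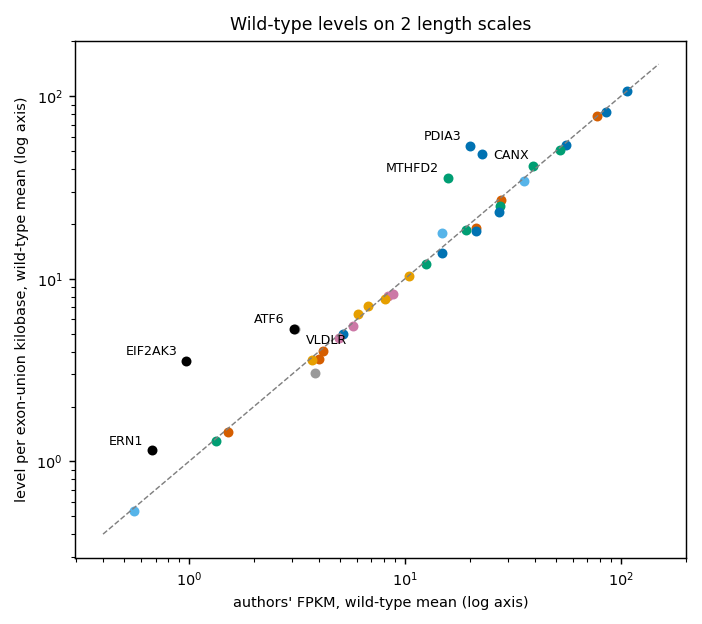
Mean wild-type level by the authors' FPKM (x axis) against the level per kilobase of GENCODE exon union scaled to the same sum (y axis), both on log axes, with 1 point a gene coloured by role as in the plot of wild-type levels; NUPR1 is left out for its near-zero level. Most genes lie on the dashed line of equality, and 7 genes more than 1.5-fold above it are named.

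In the KO columns few counts of these genes were seen. The 40 genes together took 0.391% ± 0.0052 of the counts in WT and 0.0172% ± 0.0012 in KO (SD, n = 3 each). There were 413 counts over the 3 KO libraries where the WT shares would have given 9375. CEBPB and SLC7A5 made up 81.8% of these 413 counts and 4.96% of the genes' counts in WT. The other 38 genes held 75 KO counts against 8909 at the WT share. Only CEBPB, SLC7A5 and SYVN1 had a count in each KO library, 11 genes had counts in 1 or 2 of them, and 26 had none.

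**Figure D4:**
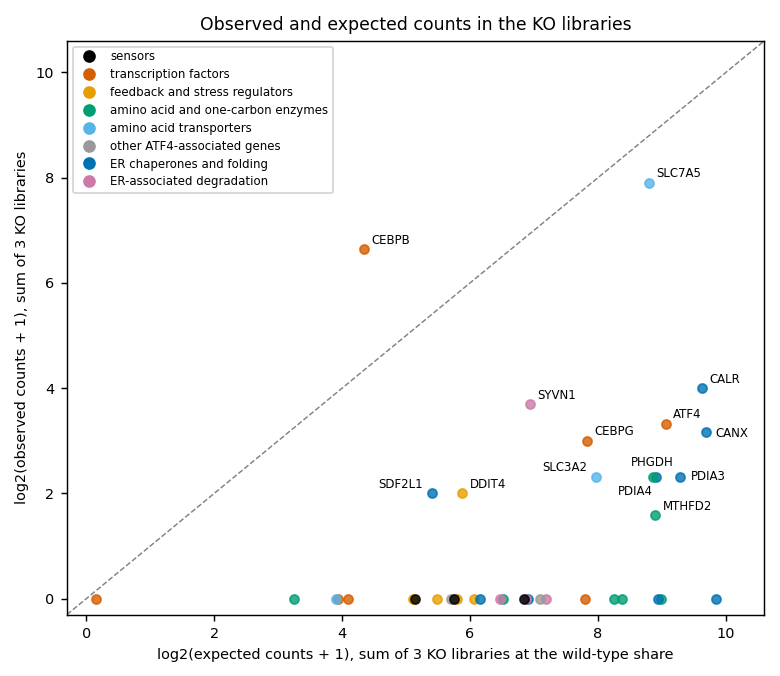
Counts of each of the 40 genes summed over the 3 KO libraries (y axis, log2 of counts + 1) against the counts that the gene's wild-type share of the library would have given there (x axis, same scale); colours are roles and the dashed line is equality. CEBPB is the only gene above the line, SLC7A5 lies nearest below it among the genes with a KO count, and 26 genes lie at 0.

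Genes entered the test if their 6 libraries averaged 1 FPKM or more, and 34 of the 40 did. ATF3, CTH, EIF2AK3, ERN1, SLC7A11 and NUPR1 did not, and none of these 6 had a KO count. A gene at 0 in KO could pass this filter only through its WT level, so a lower call for it was close to fixed. This applies to the 40 genes and to all genes tested alike. Of the 34, 33 were lower in KO (97.1%) and 1 was higher (2.94%), by edgeR's quasi-likelihood test at a Benjamini-Hochberg adjusted p under 0.05. Over all 10820 genes tested, 88.0% were lower and 7.63% higher, so the list lay near the background of the table. KO and WT CPM did not overlap for any of the 34, as for 96.2% of all genes tested. The number at 0 in all KO libraries was 20 of 34 (58.8%), against 71.3% of all genes tested. With zeros replaced by 3 counts for the whole KO group (1.25 CPM, the floor), the median log2 ratio of KO to WT CPM was -5.29 for the 34 genes and -4.54 for all genes tested. For a gene at 0 in KO this ratio is set by its WT level alone. These medians therefore do not compare the size of a fall. Over all genes, KO means under the floor were also raised to it, while MTHFD2 and DDIT4 kept theirs (0.919 and 1.16 CPM). Medians that rest on this floor are bounds. Floors and intervals cover counting error only.

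CEBPB was the only gene of the set that rose. It lies on chromosome 20 from 50190830 to 50192668 (plus strand, hg38) and is the only one of the 40 whose longest GENCODE transcript has a single exon. Its counts were 44, 31 and 24 in KO replicates 1 to 3, or 41.1 ± 12 CPM, and 543, 458 and 510 in WT, or 8.03 ± 0.83 CPM (SD, n = 3 each). The lowest KO library was above the highest WT library. At the WT share 19.3 counts would have been seen over the KO group, and 99 were. The ratio of mean CPM was 5.12-fold, and edgeR fitted 1.96 on the log2 scale (SE 0.19, adjusted p = 6.4e-05). CEBPB-AS1, which overlaps it on the opposite strand, had 0 counts in KO and 79, 55 and 82 in WT. CEBPG, of the same family, went the other way, with 0, 0 and 7 KO counts and a 29.4-fold lower mean CPM (edgeR adjusted p = 5.2e-05). All its KO counts came from replicate 3.

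SLC7A5 fell least. It lies on chromosome 16 from 87830023 to 87869507 (minus strand). Its counts were 94, 84 and 61 in KO and 12487, 11918 and 10637 in WT. This was 99.2 ± 16 CPM in KO and 186 ± 14 in WT, 1.88-fold lower and without overlap (edgeR log2 -1.30, SE 0.15, adjusted p = 0.00013). A copy named after it, SLC7A5P2, on the same chromosome from 21519830 to 21520365, had 92, 87 and 55 counts in KO and 9, 3 and 4 in WT. Set against SLC7A5, the copy thus had 97.9, 104 and 90.2% of its counts in the KO libraries and 0.0721, 0.0252 and 0.0376% in WT. In CPM the copy had 96.7 ± 19 in KO against 0.0853 ± 0.052 in WT (edgeR log2 9.70, SE 0.31, adjusted p = 3.2e-06). How reads that match both places were counted is not given in the sources used here, so the KO level of SLC7A5 is uncertain. SLC7A5P2 was chosen after its values were seen. Of the 13 copies in the table named after one of the 40 genes, 3 had any KO count, the others being SLC7A5P1 with 2, 0 and 0 and PDIA3P1 with 0, 0 and 2. SLC3A2, the partner of SLC7A5 in LAT1, had 4, 0 and 0 KO counts and was 63.3-fold lower (edgeR adjusted p = 1.5e-05), all its KO counts coming from replicate 1.

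**Figure D5:**
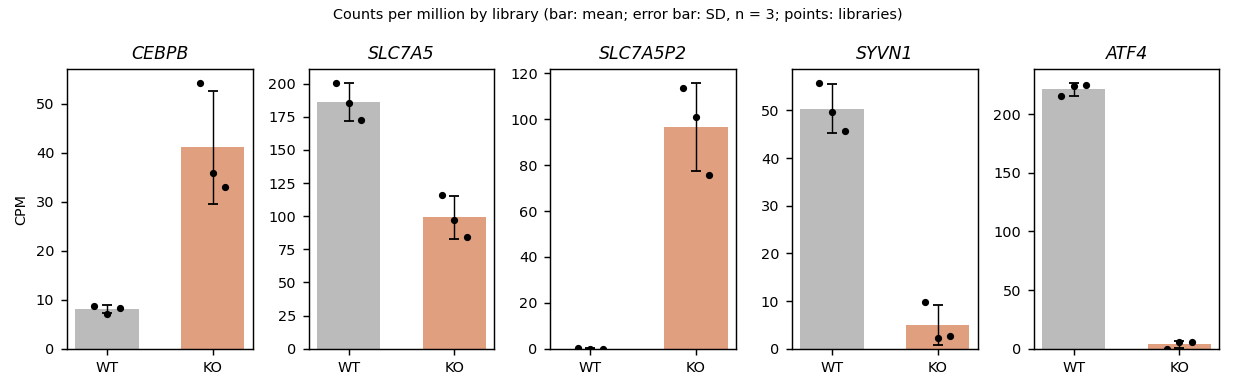
CPM in WT and KO libraries for CEBPB, SLC7A5, its copy SLC7A5P2, SYVN1 and ATF4; bars are means, error bars SD (n = 3) and points libraries, with each axis from 0. CEBPB and SLC7A5P2 are higher in KO, SLC7A5 is 1.88-fold lower, and SYVN1 and ATF4 are near 0 in KO.

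ATF4 and the remaining regulators were lower. ATF4 (chromosome 22, 39519695 to 39522683) had 0, 5 and 4 counts in KO and 13377, 14409 and 13897 in WT, 58.7-fold lower at 3.77 ± 3.3 against 221 ± 5.5 CPM (edgeR adjusted p = 1.5e-05). At the WT share 531 counts would have been seen over the KO group. XBP1 had none where 221 would have been seen and was at least 73.8-fold lower. DDIT3 had none where 14.3 would have been seen, so its bound is 4.77-fold. DDIT4 had 0, 3 and 0 counts, a ratio on the pooled counts of 19.3 with a 95% counting interval from 6.59 to 93.4, and none without KO replicate 2. TRIB3, PPP1R15A, CHAC1 and SESN2 were at 0 and at least 22-fold, 18.1-fold, 14.5-fold and 11.2-fold lower.

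All 3 sensors were at 0 in KO, as were 29202 of the 32862 genes of the table. ATF6 was at least 38.1-fold lower (edgeR adjusted p = 5.4e-05). For EIF2AK3 and ERN1, which were not tested, 52.8 and 34.1 counts would have been seen, giving bounds of 17.6-fold and 11.4-fold. ATF3, CTH and SLC7A11, also untested, had bounds of 5.34-fold, 2.82-fold and 4.68-fold. NUPR1 was under the floor in both groups, so no fold is given.

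All 6 amino acid enzymes tested were lower and 4 of these were at 0 in KO, beside 88.0% and 71.3% of all genes tested. ASNS was at least 168-fold lower, SHMT2 at least 111-fold, PSAT1 at least 101-fold and PSPH at least 30.3-fold, with edgeR adjusted p of 2.7e-05 or less. PHGDH had 0, 0 and 4 counts, 105-fold lower, and was at 0 without KO replicate 3. MTHFD2 had 0, 0 and 2 counts where 475 would have been seen, a pooled ratio of 238 with a 95% counting interval from 65.8 to 1960, and was at 0 without the same library. VLDLR and STC2 were at 0, at least 44.9-fold and 17.0-fold lower.

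Of the ER folding genes 9 of 9 were lower and of the ERAD genes 4 of 4, beside 88.0% of all genes tested. PDIA6, with 920 counts to be seen at the WT share, had none and was at least 307-fold lower, the largest bound of the 40 genes. CALR had 0, 5 and 10 counts in KO against 21329, 20540 and 19901 in WT. Its mean CPM was 50.3-fold lower, which became 113-fold on leaving out KO replicate 3 and 33.5-fold on leaving out KO replicate 1. CANX had 0, 6 and 2 counts, 106-fold lower, or 249-fold without KO replicate 2. PDIA3 (0, 4 and 0 counts) was 167-fold lower and PDIA4 (0, 0 and 4) 109-fold, each resting on 1 library and at 0 without it. SDF2L1 had 0, 0 and 3 counts, a pooled ratio of 13.8 with a 95% counting interval from 4.70 to 66.7, all of them in KO replicate 3. HYOU1 was at least 163-fold lower, MANF at least 39.7-fold and CRELD2 at least 23.4-fold.

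SYVN1 kept a count in every KO library. It had 8, 2 and 2 counts in KO and 3473, 3190 and 2824 in WT, or 4.99 ± 4.2 against 50.4 ± 5.1 CPM, 10.1-fold lower (edgeR log2 -3.73, SE 0.33, adjusted p = 4.1e-05). Leaving out KO replicate 1 made this 19.9-fold. Its annotated span overlaps MRPL49 on the opposite strand and FAU on the same strand, and these had 3, 0 and 0, and 7, 0 and 0 KO counts. KO replicate 1 is thus the highest library for all 3 genes, and without the strandedness of counting their reads cannot be told apart. SEL1L, HERPUD1 and EDEM1 were at 0 in KO, at least 47.9-fold, 38.8-fold and 29-fold lower. The 8 genes with a printed element were all lower, beside the same 88.0%, and of these CALR, CANX and SDF2L1 had KO counts.

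A wider list of 60 genes of the same pathways, which holds eIF2B subunits, other eIF2 kinases, site proteases, amino acid carriers and ER folding and export factors, was read in the same fit. All 60 were in the table and 52 passed the same filter, those at 0 in KO through their WT level alone. All 52 were lower in KO by edgeR, against 88.0% of all genes tested, and 37 were at 0 in KO, where the share over all genes tested was 71.3%. DESeq2 called 48 lower and limma 49 with either pseudocount. The number higher was 0 by edgeR, with or without adjustment of p, against 7.63% of all genes tested by edgeR at the adjusted threshold. By DESeq2 and limma it was also 0. The shares of all genes called by DESeq2 and limma are not given here, so their counts have no background beside them. Their median fitted log2 change was -13.29, against -12.42 over all genes tested, values that depend on the prior count where KO is at 0. By the authors' FPKM the 3 with the highest WT level were EIF4EBP1, a repressor of cap-dependent translation, at 122 ± 8.7 FPKM, the haem-regulated eIF2 kinase EIF2AK1 at 64.8 ± 0.41 and the proline enzyme PYCR1 at 44.5 ± 1.5. Per exon-union kilobase the first 3 were HSP90B1 (108, against 40.2 by FPKM), EIF4EBP1 (96.7) and P4HB (65, against 32.1 by FPKM), with EIF2AK1 at 61.7 and PYCR1 at 42.8. EIF4EBP1 had 4, 0 and 0 KO counts and was 71.4-fold lower, resting on KO replicate 1. EIF2AK1 had 0, 2 and 0, a pooled ratio of 465 with a 95% counting interval from 129 to 3840, resting on KO replicate 2. PYCR1 had no KO count and was at least 112-fold lower (edgeR adjusted p of 1.5e-05 or less for each). The wild-type level of EIF2AK1 thus lay above those of the ER kinases EIF2AK3 and ERN1, whose ranges did not reach it.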

How the data were processed

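Gene counts and FPKM of 6 libraries (3 KO, 3 WT, grouped by their titles) come from 1 table of 32862 genes. Counts were deposited as raw whole numbers. FPKM is named so per the file headers and was computed by the authors. Listed in the submitters' processing notes, without role or order, are hg38, DESeq2, StringTie 1.3.4d, HISAT2 2.0.4 and cutadapt 1.9. The counter, the annotation, the handling of reads with several matches and whether counting used strand were not given in the sources used here.

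The 40 genes, their roles, the other lists and the rule for genes named in full (the 2 highest WT levels per role, any gene with a KO count or called higher) were chosen with earlier results of these data known. The test was edgeR 4.0.16 (glmQLFit, glmQLFTest, TMM factors, total counts as library sizes, R 4.3.3) on the 10820 genes averaging 1 FPKM or more, genotype as the only term, adjusted over all of them. It was tested on simulated data first. Fold values are ratios of mean CPM. Genes at 0 in KO are given against a floor of 3 counts in the group's 2398362. Intervals are exact conditional binomial (95%). Replicates differed beyond sampling noise (chi-square of 15.5 to 41.7 per degree of freedom). GENCODE v29 gave exon lengths for 30513 genes. Alternatives used limma 3.58.1 on log2(FPKM + 1) and log2(FPKM + 0.1), and DESeq2 1.42.0. Python 3.11.15, pandas 2.3.3, scipy 1.17.1 and matplotlib 3.10.9 did the rest. Some single marker genes are not reported here.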

Additional observations from a re-analysis of the deposited data

How the results depend on the processing

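The direction and call of all 34 tested genes were the same with median-ratio scaling, library totals alone, no filter, DESeq2, limma with either pseudocount and without each library in turn. With a mean of at least 5 FPKM 21 of the 40 genes were tested, and all 21 kept their call, 20 lower and 1 higher. Of the 60 wider pathway genes 31 were called lower at this filter, and the number tested is not given here. Nor is the share of all genes called at this filter. CEBPB kept its rise, with a log2 change from 1.41 (median-ratio scaling) to 2.36 (library totals alone), and SLC7A5 one from -1.85 (median-ratio scaling) to -0.91 (library totals alone). Deviations of same-numbered KO and WT libraries correlated at 0.016, -0.0262 and 0.0234 over 1496 genes. Those of other pairs correlated at -0.0411 to 0.0289, so not every library correlated best with its own number. Noise in the shallow KO libraries could hide an effect shared within a number. These correlations therefore cannot decide whether the replicates were paired, and a fit with replicate number as a block is given as well. With the replicate block 3 of the 34 tested genes were called lower (SLC7A5, MTHFD2 and CANX) and 0 higher. Of the 52 tested genes of the wider list, 2 were called lower. At an unadjusted edgeR p under 0.05, 23 of the 34 were lower and 1 higher. The share of all genes tested that was called in the block fit is not given here. The drop in calls is therefore not read as particular to these genes. In the block fit CEBPB had a log2 change of 1.93 (edgeR adjusted p = 0.094). The genes at 0 in all KO libraries numbered 27 to 31 without 1 KO library. Without 1 WT library the median WT FPKM was 4.11 to 4.63 for transcription factors and 22.3 to 23.8 for ER folding genes. Exon-union length, chosen after seeing the data, gave role medians of 3.57 (sensors), 7.07 (feedback and stress regulators), 25.2 (amino acid enzymes), 17.8 (transporters), 4.19 (VLDLR and STC2), 48.6 (ER folding) and 6.80 (ERAD), and 38 genes at or above 1. The KO group as a whole sets the floor used, 1.25 CPM, and by counting error alone a gene at 0 in KO may have had a level up to it. Some genes varied far more between KO replicates 1 to 3, such as RTCB (68, 0 and 44 counts) and SLC38A2 (77, 57 and 0). A gene at 0 may therefore have had a level above the floor, and the folds given as at least a value are bounds for counting error only.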
